A study of Mus musculus with 4 samples.

Results

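The synaptic vesicle and release machinery comprised 64 of the 31053 genes in the count tables. A gene was taken as a member if its symbol belonged to the synaptotagmins (*Syt*), synapsins (*Syn1* to *Syn3*), SV2 proteins (*Sv2a* to *Sv2c*), *Vamp1* to *Vamp8*, syntaxins (*Stx*), syntaxin-binding proteins (*Stxbp*), RIM proteins (*Rims1* to *Rims4*), complexins (*Cplx1* to *Cplx4*), *Snap25* or the Munc13 proteins (*Unc13a* to *Unc13d*), and no measured value entered that choice. The data were single-nucleus RNA-seq of brains from C57/BL6 female mice 2 months of age, without treatment, with 2 wild-type (WT) and 2 *Csf1r*+/- libraries, each from 1 mouse. *Csf1r*+/- mice carry a single working copy of the gene for the CSF-1 receptor in every cell, so the genotype was not limited to microglia. Nuclei were isolated without detergent from perfused brains and passed over magnetic beads to deplete myelin debris.

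Transmitter release depends on vesicles that dock and fuse at the active zone. VAMP2 on the vesicle and syntaxin-1A with SNAP-25 on the plasma membrane form the SNARE complex that drives fusion. Munc13 and RIM proteins prime vesicles, complexins bind the assembled SNARE complex, and synaptotagmins such as SYT1 and SYT2 sense calcium. SV2 proteins and synapsins sit on the vesicle, where synapsins tether vesicles to each other and to the cytoskeleton. Other members of the same gene families carry traffic through endosomes, the Golgi and the surface of non-neuronal cells, for example syntaxin-7, VAMP4 and VAMP8.

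After filtering, 16114 and 15247 nuclei remained in the WT libraries and 9589 and 11182 in the *Csf1r*+/- libraries. The median nucleus held 5490 and 4636 unique molecular identifiers (UMIs, each counting 1 captured RNA molecule) in WT and 7454 and 6656 in *Csf1r*+/-, so UMIs per nucleus moved with genotype. Pairs of libraries shared 33 to 68 barcodes. Nuclei were clustered without the members, and 23 classes were named by likeness to marker genes, 17 of neurons and 6 of glia or vessels. Each class name therefore stands for nuclei that resemble the named type. No cluster was named for astrocytes. The oligodendrocyte precursor class, of which *Csf1r*+/- replicate 2 held only 13 nuclei, also met 5 astrocyte markers (*Slc1a2*, *Slc1a3*, *Gja1*, *Gpc5* and *Ntsr2*). The mural class met every endothelial marker as well as its own, and high doublet scores marked 31.7% of mural and 36.1% of endothelial nuclei, so these vascular classes were not cleanly separate. *Csf1r* itself, measured in the microglia, stood at 855 and 864 CPM in the WT libraries against 606 and 576 CPM in the *Csf1r*+/- libraries. CPM scales the UMIs of a gene to a fixed total of all UMIs of the class in that library.

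Captured RNA was spread very unevenly over the members. *Syt1* gave 1646814 UMIs, *Rims1* 683933, *Rims2* 470892 and *Snap25* 369532. At the other end, *Syt8* gave 3 UMIs in all nuclei, *Cplx4* 15, *Stx11* 36 and *Syt15* 82. In total 47 members had a UMI in at least 10% of nuclei and 8 in under 1%. Counts followed gene length in part. Over the 63 members with a position in the annotation, the level in excitatory neurons and the length of the gene had a Spearman rho of 0.67, a description across genes that share these libraries. Per kilobase of gene, *Snap25* at 16.2 CPM per kb stood above *Syt1* at 9.88, and *Vamp2*, a gene of 3.9 kb, reached 4.82 CPM per kb although its level was only 18.8 CPM. Levels below are therefore compared between classes for the same gene and not between genes. They are described without a test, because the same nuclei formed the classes.

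**Figure D1:**
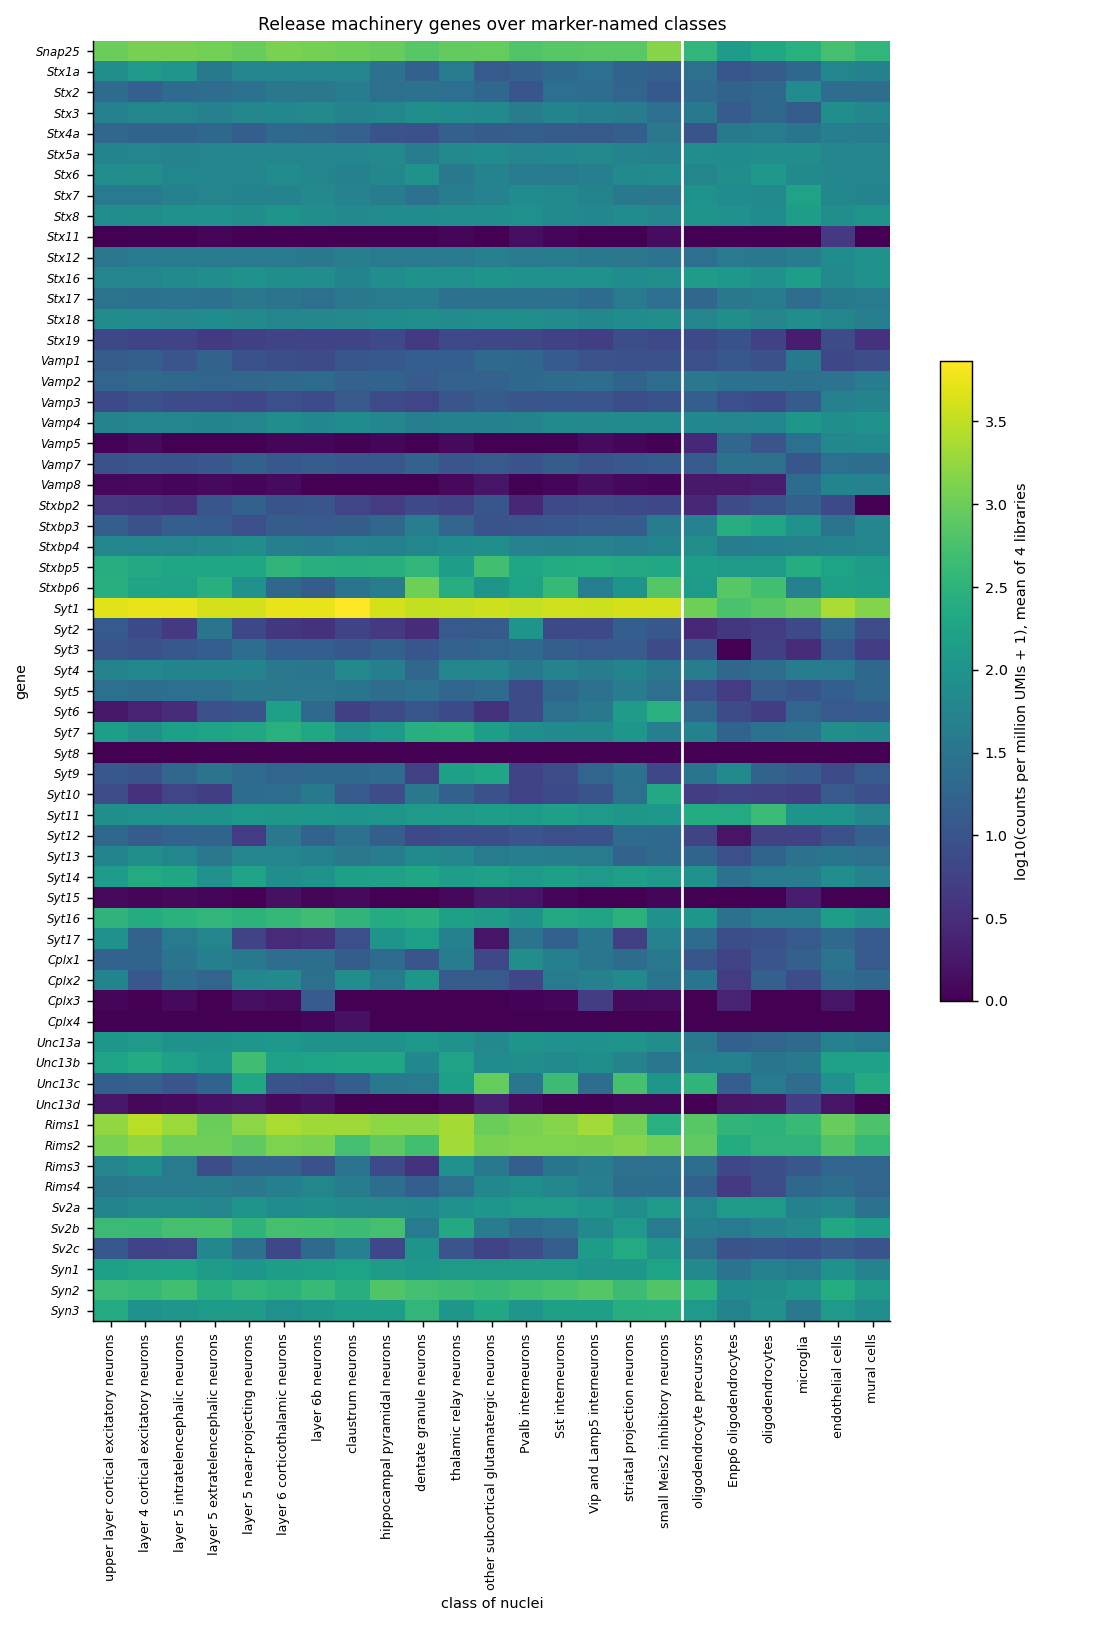
Mean level of the members (rows) in each of the 23 named classes (columns), as log10 of CPM plus 1 over the 4 libraries. The white line separates neurons from glial and vascular classes. Mean levels of *Syt1* and *Snap25* were higher in every neuron class than in any glial or vascular class. *Rims1* was lowest of all named classes in the small Meis2 inhibitory neurons, and *Vamp5* and *Vamp8* lay near 0 in neurons.

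The core fusion genes were present in every neuron class. *Snap25* ranged from a mean of 651 CPM in Pvalb interneurons to 1442 CPM in the small Meis2 inhibitory neurons. In the latter its levels were 1292 and 1425 CPM (WT) against 1634 and 1417 CPM (*Csf1r*+/-), which overlapped the next class, layer 6 corticothalamic neurons. *Stx1a*, which encodes syntaxin-1A, was highest in cortical classes, with 110, 150, 122 and 113 CPM in layer 4 neurons against a mean of 11.6 CPM in the subcortical glutamatergic class. *Vamp1* and *Vamp2*, which encode the vesicle SNAREs of neurons, were captured at low levels in neurons, at most 20.4 and 24.4 CPM. *Vamp1* had its highest mean, 36.1 CPM, in microglia, and *Vamp2* its highest, 42.1 CPM, in mural cells. *Vamp1* overlapped its next class, the subcortical glutamatergic class, and *Vamp2* overlapped oligodendrocyte precursors, so neither was set apart outside neurons.

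Synaptotagmins gave the clearest differences between neuron types. *Syt1*, the main calcium sensor of fast release in the forebrain, was highest in claustrum neurons at 8008 and 5980 CPM (WT) against 7257 and 8159 CPM (*Csf1r*+/-), and it reached at least a mean of 3260 CPM in every other neuron class. *Syt2*, the fast calcium sensor known from fast-spiking interneurons and hindbrain synapses, was highest among named classes in Pvalb interneurons, with 75.9 and 88.9 CPM (WT) against 114 and 119 CPM (*Csf1r*+/-). The next class, layer 5 extratelencephalic neurons, lay between 28.7 and 32.7 CPM, so the classes did not overlap in any library. Several neuron clusters without a marker-based name also carried *Syt2*. Those led by *Six3* and *Isl1* averaged 130.5 CPM, those led by *Col18a1* and *Irx2* 97.3 CPM, and those led by *Otx2os1* and *Ebf3* 74.7 CPM. A further cluster led by *Tfap2d* and *Adamtsl5* had *Syt2* among its 10 leading genes, but 243 of its 272 nuclei came from WT replicate 1, so it entered no comparison. At the finer clustering (resolution 2), 1 cluster of 2503 nuclei that was then named for subcortical glutamatergic neurons also had *Syt2* among its 10 leading genes, so the order of named classes for *Syt2* holds for the clustering used.

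*Syt6*, *Syt9*, *Syt10* and *Syt17* each marked other neurons. *Syt6* stood at 285, 242, 314 and 280 CPM in the small Meis2 inhibitory neurons, above layer 6 corticothalamic neurons at 116 to 186 CPM and striatal projection neurons at 93.1 to 172 CPM, and the last pair overlapped. *Syt10*, which has been linked to regulated secretion in olfactory bulb neurons, was highest in the same Meis2 class at 118, 162, 386 and 187 CPM, with a mean of 35.9 CPM in layer 6b neurons next. The span of the *Syt10* values came from *Csf1r*+/- replicate 1, which lay far above the other 3 libraries. *Syt9*, a further calcium sensor, was subcortical. It averaged 192 CPM in the subcortical glutamatergic class and 159 CPM in thalamic relay neurons, which overlapped each other, whereas the median over named classes was 17.3 CPM. *Syt17* was highest in dentate granule neurons at 133, 157, 102 and 213 CPM, ahead of hippocampal pyramidal neurons at 88.2 to 101 CPM and upper layer neurons at 76.5 to 110 CPM. Dentate granule neurons lay above both within each library, although their lowest value was below the highest of upper layer neurons, and both lay above layer 5 extratelencephalic neurons, which averaged 57.0 CPM.

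Some synaptotagmins were broad or not neuronal. *Syt7*, which serves slower, sustained release, averaged 290 CPM in thalamic relay neurons and 283 CPM in layer 6 corticothalamic neurons, which overlapped. *Syt16* was highest in layer 6b neurons, where it lay between 434 and 523 CPM in every library and above the 348 to 412 CPM of layer 6 corticothalamic neurons. *Syt11*, which does not bind calcium, was highest outside neurons, at 472, 383, 464 and 379 CPM in oligodendrocytes against a mean of at most 150 CPM in any neuron class.

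*Cplx1* and *Cplx2* had opposite levels in Pvalb interneurons and dentate granule neurons. *Cplx1* was highest in Pvalb interneurons, at 72.8, 72.0, 88.8 and 88.2 CPM, and *Cplx2* was low there, at 3.04 to 10.1 CPM. *Cplx2* was instead highest in dentate granule neurons, at 99.8 to 135 CPM, and did not overlap the next class, claustrum neurons, in any library. Dentate granule neurons in turn had a mean *Cplx1* level of only 9.57 CPM. *Cplx3* was scarce, with 204 UMIs in all, yet 108 of them came from layer 6b neurons at 11.3, 15.3, 15.6 and 5.91 CPM. Vip and Lamp5 interneurons followed with a mean of 3.98 CPM.

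Priming factors of the Munc13 and RIM families also had distinct patterns. *Unc13a*, the main Munc13 of forebrain synapses, was even, between 65.0 and 117 CPM over neuron classes. *Unc13b* stood out in layer 5 near-projecting neurons at 473, 485, 502 and 483 CPM, and layer 4 neurons followed at 207 to 261 CPM. *Unc13c*, best known from cerebellar granule cells, was highest in the subcortical glutamatergic class at 907, 924, 806 and 1000 CPM, then in striatal projection neurons at a mean of 541 CPM and Sst interneurons at 452 CPM, against a median of 34.5 CPM over named classes. The *Col18a1* and *Irx2* cluster reached a mean *Unc13c* level of 1106 CPM. *Rims1* was highest in layer 4 neurons, between 2822 and 2995 CPM. Its mean was lowest in the small Meis2 class, at 187 to 422 CPM, below every glial and vascular class as well. *Rims2* was highest in thalamic relay neurons, between 2051 and 2284 CPM. *Rims3* was high in thalamic relay and layer 4 neurons, at means of 89.9 and 84.4 CPM, and nearly absent from dentate granule neurons at 2.72 CPM. *Rims4*, by contrast, was highest in Pvalb interneurons at a mean of 81.9 CPM.

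The SV2 genes differed in their levels over neuron types. *Sv2b* was high in cortical and hippocampal pyramidal neurons, up to 559 CPM in layer 5 extratelencephalic neurons, and low in Pvalb interneurons at 24.1 CPM. It was also low in some excitatory classes, at 37.4 CPM in dentate granule neurons and 40.3 CPM in the subcortical glutamatergic class. *Sv2c*, known from the basal ganglia, was highest among named classes in striatal projection neurons, at 233, 190, 234 and 251 CPM. The next named class, Vip and Lamp5 interneurons, lay between 107 and 184 CPM. An excitatory cluster of 868 nuclei without a marker-based name, led by *Matn4* and *Igdcc3*, also had *Sv2c* among its leading genes. Its *Sv2c* level is not given here, so the order for *Sv2c* holds for named classes only. *Sv2a* was present in all neurons and just as high in oligodendrocytes, with means of 127 CPM in Pvalb interneurons, 125 CPM in *Enpp6* oligodendrocytes and 122 CPM in oligodendrocytes. Among synapsins, *Syn1* ranged from 103 to 191 CPM and *Syn2* from 262 to 694 CPM over neuron classes, while *Syn3* was highest in dentate granule neurons at 312 to 449 CPM.

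**Figure D2:**
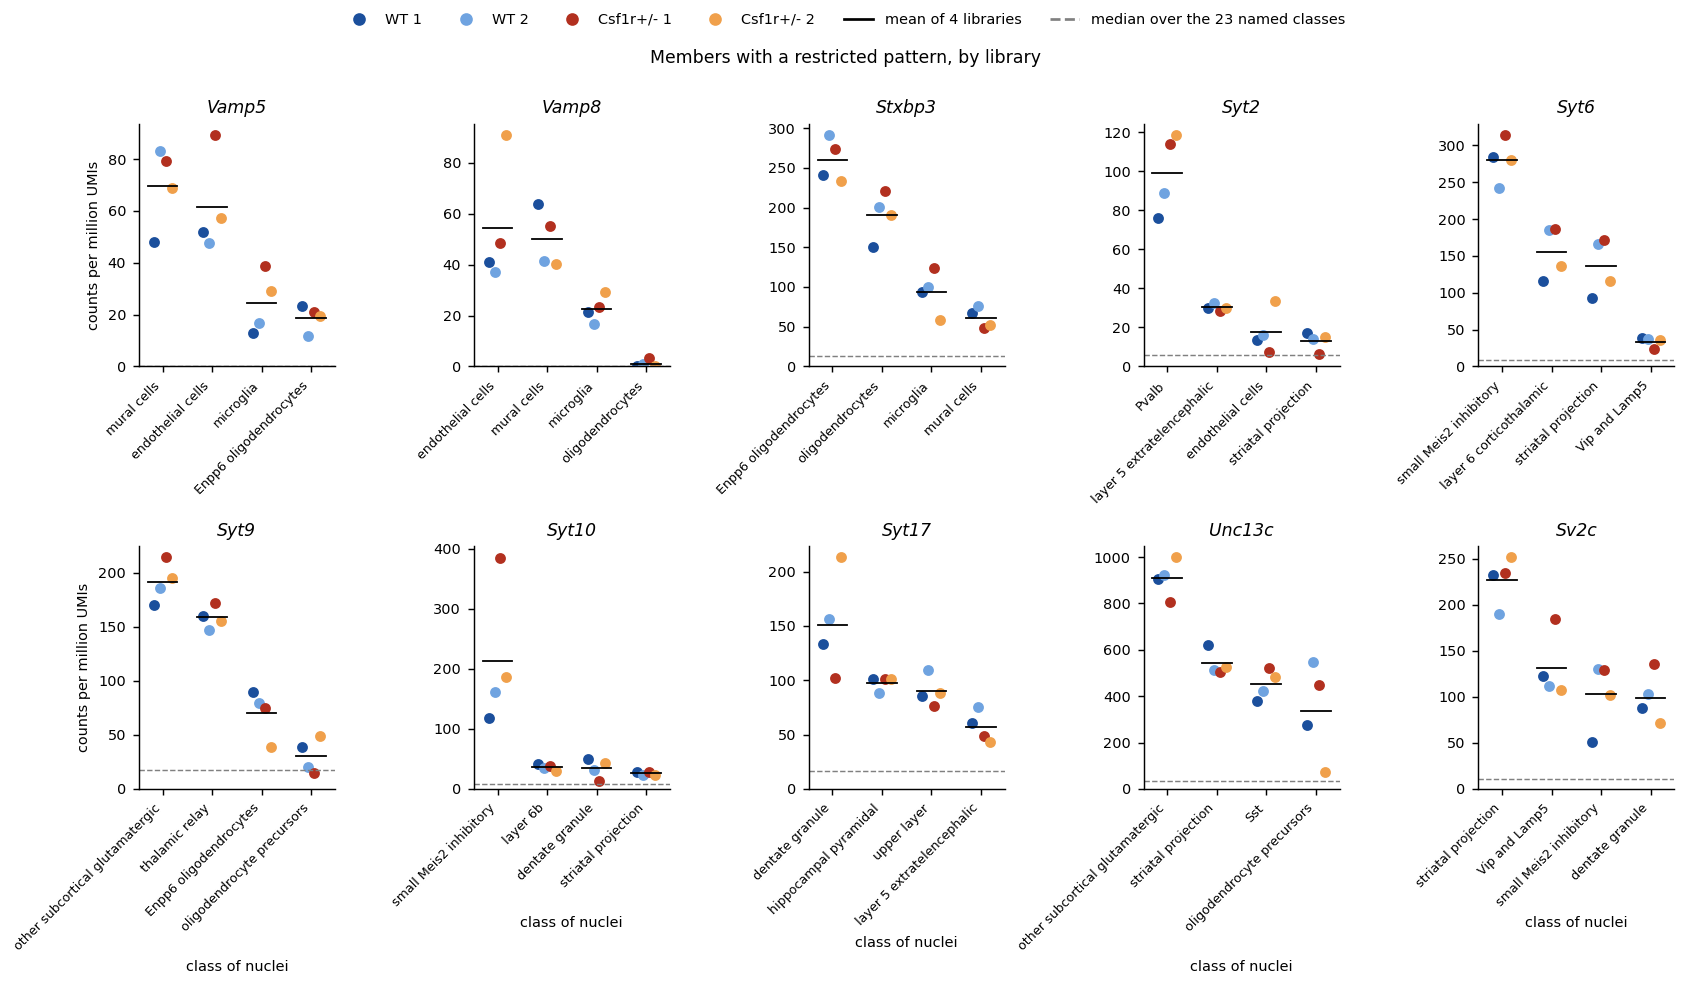
Levels in CPM of the 10 members whose highest class reached at least 8 times their median over named classes and at least 20 CPM, in the 4 named classes with the highest means. Points are libraries (blue WT, red and orange *Csf1r*+/-), bars are means and dashed lines the median over the 23 named classes. *Syt2* in Pvalb interneurons and *Unc13c* in the subcortical glutamatergic class lay above every other named class in each library.

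Of the 64 members, 42 had their highest mean level in a neuron class and 22 in a glial or vascular class, among them 9 in microglia. The 9 were *Vamp4*, *Stx16*, *Stx2*, *Vamp1*, *Stx7*, *Syt15*, *Stx8*, *Unc13d* and *Stx5a*. Of these, *Syt15* averaged only 1.04 CPM and *Unc13d* 4.19 CPM in microglia, each with no UMI in at least 1 library. Their place, and that of *Syt8*, *Cplx4* and *Stx11* with highest means of 0.02, 0.50 and 3.41 CPM, rests on very few UMIs. *Stx7*, a syntaxin of late endosomes, stood at 140, 146, 171 and 205 CPM in microglia, and overlapped the next class, oligodendrocyte precursors, which averaged 92.4 CPM. *Stx8* averaged 141 CPM, *Stx16* 144 CPM and *Vamp4* 111 CPM in microglia, each overlapping the next class in at least 1 library. *Stx2* averaged 72.4 CPM there and lay above its next class, claustrum neurons, in every library. *Stxbp3*, which encodes Munc18c, a partner of syntaxin-4, was highest in the oligodendrocyte lineage, at 241, 291, 273 and 234 CPM in *Enpp6* oligodendrocytes and a mean of 191 CPM in oligodendrocytes, whereas neuron classes reached at most 44.7 CPM. *Stxbp6* was high in both lineages, with 1021 CPM in dentate granule neurons and 719 CPM in *Enpp6* oligodendrocytes.

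*Stx6*, a syntaxin of the trans-Golgi network, averaged 112 CPM in oligodendrocytes, above every other class in each library. *Stxbp5*, which encodes tomosyn, a syntaxin-binding protein that inhibits SNARE assembly, was highest in the subcortical glutamatergic class between 474 and 539 CPM and reached 249.5 CPM in microglia. *Stx12* and *Vamp3*, both of recycling endosomes, were highest in mural cells at means of 96.4 and 53.2 CPM, and *Stx4a*, a plasma membrane syntaxin of non-neuronal cells, in endothelial cells at 44.4 CPM. Each of these vascular levels overlapped the next class.

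The vascular classes carried 2 members that were near 0 in neurons. *Vamp5* stood at 47.9, 83.0, 79.4 and 68.9 CPM in mural cells and at a mean of 61.5 CPM in endothelial cells. *Vamp8*, which acts in regulated exocytosis and in fusion of autophagosomes, stood at 41.0, 37.1, 48.3 and 90.7 CPM in endothelial cells and at a mean of 50.1 CPM in mural cells. The part of doublets in the likeness of the vascular classes was not tested. No neuron class exceeded a mean of 0.31 CPM for *Vamp5* or 0.64 CPM for *Vamp8*. The medians over the 6 glial and vascular classes were 21.6 CPM for *Vamp5* and 11.8 CPM for *Vamp8*. Neither gene was therefore limited to the vascular classes. The genes are neighbours on the same strand of chromosome 6, *Vamp5* at 72368794 to 72380468 and *Vamp8* at 72385223 to 72390703 in GRCm38, with 4.75 kb between them. Both were highest in the vascular classes and near 0 in neurons, and their promoters are printed here. The promoters run from 250 bases before to 50 bases after the RefSeq start in GRCm38.p6. They lie at chr6:72380419-72380718 and chr6:72390618-72390917 and are written 5′ to 3′ on the minus strand, with capitals at any match on either strand to 1 of 5 motifs. These were the GC box GGGCGG, the CCAAT box, the TATA box TATAAA, and the stretches CAGCACC and also GGACAG of the RE1 element that the repressor REST binds.
Vamp5: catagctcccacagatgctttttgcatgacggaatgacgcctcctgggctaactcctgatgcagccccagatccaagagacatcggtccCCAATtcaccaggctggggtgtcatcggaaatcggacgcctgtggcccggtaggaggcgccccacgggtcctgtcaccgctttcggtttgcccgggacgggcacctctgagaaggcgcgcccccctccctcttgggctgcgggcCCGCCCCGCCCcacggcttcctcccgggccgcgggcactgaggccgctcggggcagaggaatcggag
Vamp8: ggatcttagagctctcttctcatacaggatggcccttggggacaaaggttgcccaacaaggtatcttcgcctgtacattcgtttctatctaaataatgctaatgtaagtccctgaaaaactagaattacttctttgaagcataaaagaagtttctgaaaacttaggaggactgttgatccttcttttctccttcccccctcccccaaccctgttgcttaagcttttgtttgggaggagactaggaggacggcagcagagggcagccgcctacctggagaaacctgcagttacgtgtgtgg
The *Vamp5* promoter held 2 matches to GGGCGG, which overlap each other by 1 base, and 1 to CCAAT, and the *Vamp8* promoter held none of the 5 motifs. GC content was 67.3% and 46.7%. Of 32851 promoters of this length, 35.7% held the GC box, 37.4% the CCAAT box, 13.6% the TATA box, 7.14% the first RE1 stretch and 22.2% the second. Promoters were given for 47 of the 64 members, and 37 of these genes held the GC box, 16 the CCAAT box, 3 the TATA box, 8 the first RE1 stretch and 11 the second in at least 1 promoter. Counted per promoter, 66.1% of the 62 member promoters held the GC box, 29.0% the CCAAT box and 6.45% the TATA box. The RE1 stretches were in 12.9% and 22.6% of them.

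Levels of the neuronal members in glia have to be read beside free neuronal RNA. A panel of 10 transcripts known mainly from neurons (*Rbfox3*, *Map2*, *Meg3*, *Snhg11*, *Celf4*, *Tubb3*, *Nrg3*, *Kcnip4*, *Lrrtm4* and *Grin2b*) was detected in full in every glial and vascular class. Its summed level was 33333 to 36674 CPM in excitatory neurons, 3812 to 10535 CPM in microglia and 13217 to 22646 CPM in endothelial cells. *Syt1* likewise gave a mean of 946 CPM in microglia and 2392 CPM in endothelial cells. The part of free RNA in these glial levels was not tested.

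Genes whose levels over the 23 named classes were most like those of restricted members are given by Spearman correlation of class means, as a description over classes that share libraries. *Vamp5* and *Vamp8* were most alike (rho 0.73), and *Sypl*, a synaptophysin-like gene, followed *Vamp5* at 0.70. *Syt10* was most like *Syt5* (0.67), *Syt9* most like *Rab3gap1* (0.66), *Syt17* most like *Ppfia2* (0.63), *Syt6* most like *Vamp4* (0.61) and *Sv2c* most like *Syn3* (0.59). *Stxbp3* was most like *Sypl* (0.58), *Unc13c* most like *Ppfia4* (0.48) and *Syt2* most like *Cplx1* (0.43). The low values for *Syt2* and *Unc13c* show that no other gene of the lists followed them closely.

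The genotype contrast asked whether a single copy of *Csf1r* altered these genes in each class. UMIs were summed per library and class and compared with edgeR's quasi-likelihood test over all genes that reached 10 counts and were detected in 10% or more of the nuclei of one genotype. Members were called at an unadjusted p under 0.01, the threshold of the study, and adjusted p-values (Benjamini-Hochberg) cover all genes tested in the class. Counts at an unadjusted p under 0.05 within a class have no share of all genes beside them. They therefore do not set the members apart from other genes. Values in the contrasts are CPM after TMM scaling. Medians and counts of genes lower or higher describe the listed genes, without the values over all genes tested beside them. With 2 libraries against 2, an exact permutation test could not go below p = 0.333, so significance rests on the spread pooled over genes. For the same reason a lack of overlap between genotypes is a description and no test. The share of all genes without overlap is not given. Neuron clusters that met too few excitatory or inhibitory markers entered neither broad neuron class. Among them were thalamic relay neurons, the subcortical glutamatergic class and the *Otx2os1* and *Ebf3* neurons (7836 nuclei). Glial levels given relative to neurons use the broad excitatory and inhibitory classes only. Of the 64 members, 54 passed the filter in at least 1 broad class. The other 10 (*Cplx3*, *Cplx4*, *Stx11*, *Stx19*, *Stxbp2*, *Syt15*, *Syt3*, *Syt8*, *Unc13d* and *Vamp7*) passed it in none.

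In excitatory neurons no member was called among 49 tested, where 0.314% of all 7634 genes were. At an unadjusted p under 0.05 edgeR gave 1 member, and DESeq2 called 0. The median log2 fold change (*Csf1r*+/- against WT) of the members was 0.05, with 17 lower and 32 higher, and all 49 had 95% intervals within 1 log2 unit of 0. *Snap25* read 1050 and 1125 CPM (WT) against 1242 and 1036 CPM (*Csf1r*+/-), a log2 difference of 0.07 with an interval from -0.28 to 0.41. *Syt1* read 5385 and 4241 CPM against 5005 and 5706 CPM, a log2 difference of 0.15 with an interval from -0.29 to 0.60. For both genes the genotypes overlapped. *Syt17* had the lowest p among the members, at 49.3 and 50.8 CPM (WT) against 40.6 and 41.4 CPM (*Csf1r*+/-) (log2 difference -0.29 ± 0.10 SE, adjusted p = 0.9999 by edgeR), and its libraries did not overlap.

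In inhibitory neurons no member was called among 43 tested, where 0.171% of all genes were. Here too 1 member had an unadjusted p under 0.05 by edgeR, and DESeq2 called 0. Their median log2 fold change was 0.02, with 19 lower and 24 higher. *Sv2b*, which is sparse in these classes, had the lowest p, at 50.5 and 64.4 CPM in WT against 38.0 and 47.6 CPM (log2 difference -0.43 ± 0.17 SE, adjusted p = 0.9996 by edgeR). *Syt10* differed most in size, by 1.04 on the log2 scale, and was not called. Among named classes it averaged 213 CPM in the small Meis2 class and 35.9 CPM in the next. In that Meis2 class *Csf1r*+/- replicate 1 lay far above the other libraries. The part of that class and library in the difference was not tested. In a test of the difference between the classes (the class by genotype interaction, with library as a block), 0 of 41 members had an unadjusted p under 0.01 and 1, *Sv2b*, had one under 0.05, where 3.41% of all genes did. Its effect was lower in inhibitory neurons by a log2 difference of -0.52 ± 0.15 SE (adjusted p = 0.9997 by edgeR).

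**Figure D3:**
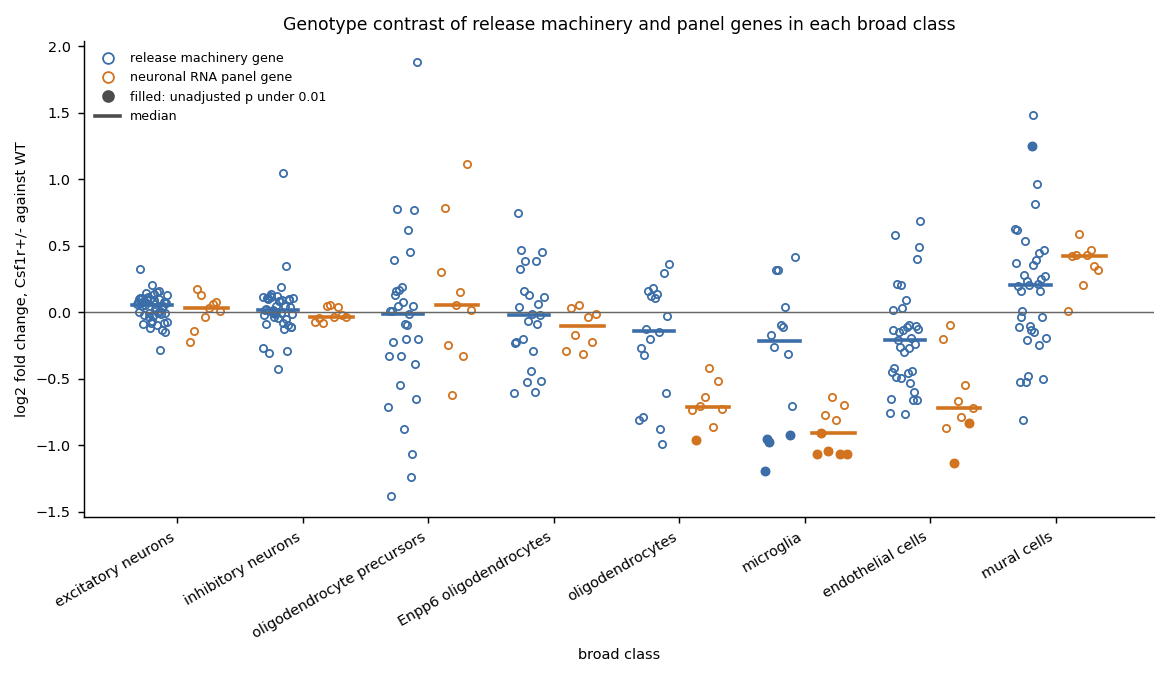
Log2 fold change of *Csf1r*+/- against WT for each member (blue) and each neuronal RNA panel gene (orange) that passed the filter in 8 broad classes, filled where the unadjusted p was under 0.01, with bars at the medians. Member medians lay near 0 in the excitatory and inhibitory neurons (0.05 and 0.02). In microglia, endothelial cells and oligodendrocytes the panel medians lay at -0.90, -0.72 and -0.71, and in mural cells at 0.43.

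Over the 17 named neuron subtypes, 4 of 741 member tests were called, where 0.614% of all gene tests were, and none reached an adjusted p under 0.05 by edgeR. A total of 30 had an unadjusted p under 0.05. Of the 4, 3 fell in the small Meis2 inhibitory neurons, among 33 members tested there, where 1.78% of all 4492 genes were called. There *Rims1* read 421 and 320 CPM (WT) against 189 and 202 CPM (*Csf1r*+/-) (log2 difference -0.92 ± 0.17 SE, adjusted p = 0.40 by edgeR). *Sv2b* read 50.2 and 51.2 CPM (WT) against 23.3 and 21.1 CPM (*Csf1r*+/-) (log2 difference -1.17 ± 0.22 SE, adjusted p = 0.40 by edgeR). In the *Csf1r*+/- libraries its UMIs numbered fewer than 10% of the nuclei. *Sv2b* could therefore pass the detection filter only through WT, where it was high, so its call is no independent support. *Syt10* read 118 and 159 CPM (WT) against 390 and 189 CPM (*Csf1r*+/-) (log2 difference 1.10 ± 0.32 SE, adjusted p = 0.54 by edgeR). None of the 3 overlapped between genotypes, though *Csf1r*+/- replicate 1 alone carried most of the *Syt10* difference. Without that library none of the 3 was called, with log2 differences of -0.88 for *Rims1*, -1.27 for *Sv2b* and 0.44 for *Syt10*. *Syt10* was also not called without WT replicate 1 (0.92) or WT replicate 2 (1.34). At the finer clustering *Sv2b* was called (-1.16), and *Rims1* (-0.44) and *Syt10* (1.11) were not. There the class joined clusters of 1365 and 453 nuclei, and a cluster of 119 nuclei led by *Ndnf* had no name. The nuclei of the class were therefore not the same as at resolution 1. In the class at resolution 1, 2 of 9 panel genes were also lower at an unadjusted p under 0.01, *Kcnip4* at -0.83 and *Nrg3* at -0.52. Their part was not tested.

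This Meis2 class joined 2 clusters of 1361 and 334 nuclei whose *Rims1* levels differed, so each was also fitted alone, a choice made after these results were seen. The larger held 321 and 443 nuclei (WT) against 393 and 204 (*Csf1r*+/-), and the smaller 107 and 112 against 80 and 35. The part of this mix in the values of the joined class was not tested. In the larger, led by *Lgr6* and *Frmd7*, *Rims1* read 224 and 234 CPM (WT) against 137 and 150 CPM (*Csf1r*+/-) (log2 difference -0.68, adjusted p = 0.61 by edgeR). In the smaller, led by *Ndnf*, it read 873 and 586 CPM against 429 and 488 CPM (log2 difference -0.68, adjusted p = 0.76 by edgeR), which was not called. *Sv2b* was lower in both, by log2 differences of -1.05 and -1.67, although the *Csf1r*+/- libraries of the smaller cluster held only 7 and 1 of its UMIs. Those of the larger held 37 and 15. In neither cluster could *Sv2b* pass the detection filter through *Csf1r*+/-, so these fits add no independent support. *Syt10* had a log2 difference of 0.96 in the larger cluster, where it was not called and *Csf1r*+/- replicate 1 stood apart, and it overlapped between genotypes in the smaller. The fourth call was *Syt2* in Pvalb interneurons, at 77.5 and 87.6 CPM (WT) against 112 and 119 CPM (*Csf1r*+/-) (log2 difference 0.49 ± 0.13 SE, adjusted p = 0.79 by edgeR), with no overlap. It was not called without either *Csf1r*+/- library or under DESeq2. In the *Otx2os1* and *Ebf3* neurons, which had no test, *Syt2* stood at 64.7 and 60.9 CPM (WT) against 78.7 and 94.4 CPM (*Csf1r*+/-). These neurons comprised 2661 and 2265 nuclei (WT) against 1362 and 1548 nuclei (*Csf1r*+/-). At the finer clustering, a cluster with *Ebf3* and *Syt2* among its leading genes held 689 and 648 nuclei against 479 and 687. How these nuclei overlap is not given, and the part of that mix was not tested. Genotype values of the other unnamed clusters with *Syt2* are not given.

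**Figure D4:**
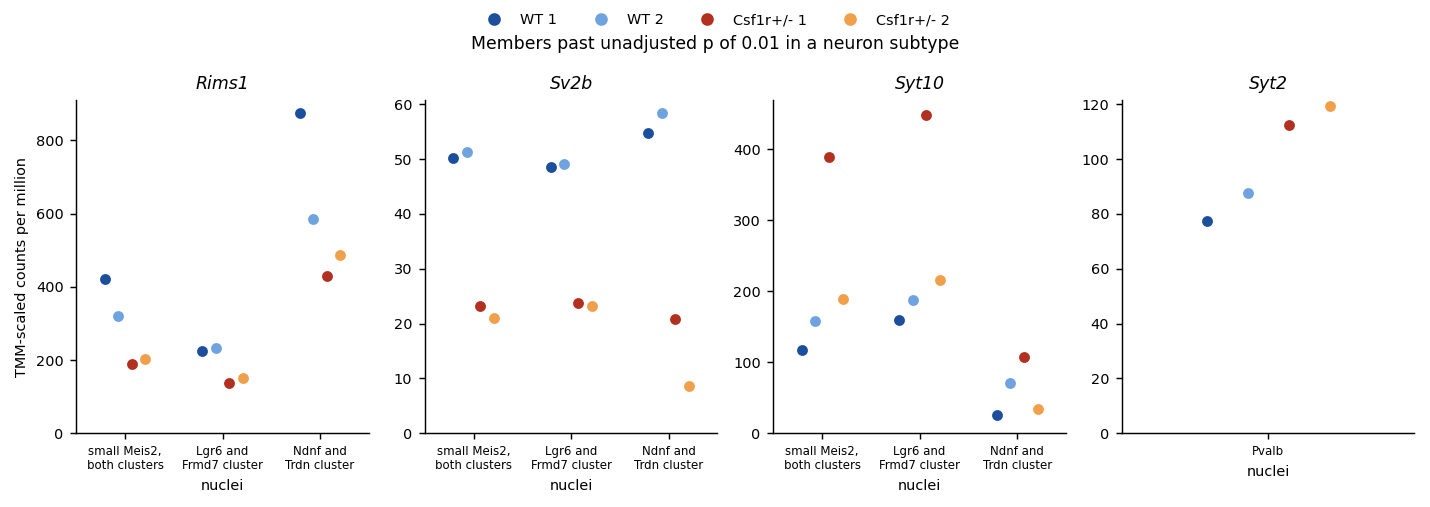
TMM-scaled CPM by library of the members called in a neuron subtype, for the small Meis2 inhibitory neurons as a whole and for each of its clusters, and for Pvalb interneurons. *Rims1* and *Sv2b* were lower in both *Csf1r*+/- libraries in each cluster, *Syt10* was highest in *Csf1r*+/- replicate 1, and *Syt2* was higher in both *Csf1r*+/- libraries.

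Among broad classes, only microglia had members with an adjusted p under 0.05 by edgeR, although larger fold changes occurred in mural cells and oligodendrocyte precursors. Of 14 members tested, 4 were lower in *Csf1r*+/- at an unadjusted p under 0.01, where 5.86% of all genes were lower at that threshold, and 2 reached an adjusted p under 0.05, where 1.31% of all genes did. *Rims1* read 597 and 553 CPM (WT) against 190 and 321 CPM (*Csf1r*+/-) (log2 difference -1.19 ± 0.25 SE, adjusted p = 0.028 by edgeR). *Snap25* read 338 and 407 CPM against 174 and 206 CPM (log2 difference -0.98 ± 0.24 SE, adjusted p = 0.045 by edgeR). *Rims2* and *Syt1* fell by 0.95 and 0.92 on the log2 scale (adjusted p = 0.055 and 0.057 by edgeR). These 4 are the members with the most captured RNA in neurons, and no library of one genotype overlapped the other. Without *Csf1r*+/- replicate 1 only 2 were called, and with classes set by marker UMIs none was, with *Rims1* at -0.58.

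The neuronal RNA panel moved with them. All 9 panel genes tested in microglia were lower in *Csf1r*+/-, with a median log2 fold change of -0.90 and 5 at an unadjusted p under 0.01. The panel's summed level in microglia was 10535 and 8928 CPM (WT) against 3812 and 7111 CPM (*Csf1r*+/-). Per 100 panel UMIs, the called members together gave 24.7 and 28.5 UMIs in WT microglia and 27.8 and 23.4 UMIs in *Csf1r*+/- microglia, which overlapped. The same ratio was 25.8 to 28.2 in excitatory neurons and 23.2 to 24.6 in inhibitory neurons. Its members were chosen by their fall in the same microglia, so the ratio is a description and no test. Relative to neurons of the same library, *Rims1* in microglia stood at 28.2% and 29.3% in WT and 10.1% and 16.5% in *Csf1r*+/-. *Nrg3*, the panel gene that fell most, stood at 29.2% and 28.1% against 9.7% and 17.9%. *Rims1* and *Nrg3* were both lowest in *Csf1r*+/- replicate 1. Panel log2 fold changes ran from -1.06 (*Nrg3*) to -0.64 (*Map2*), and *Rims1* at -1.19 lay below them all. The part of free neuronal RNA in these values was not tested.

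**Figure D5:**
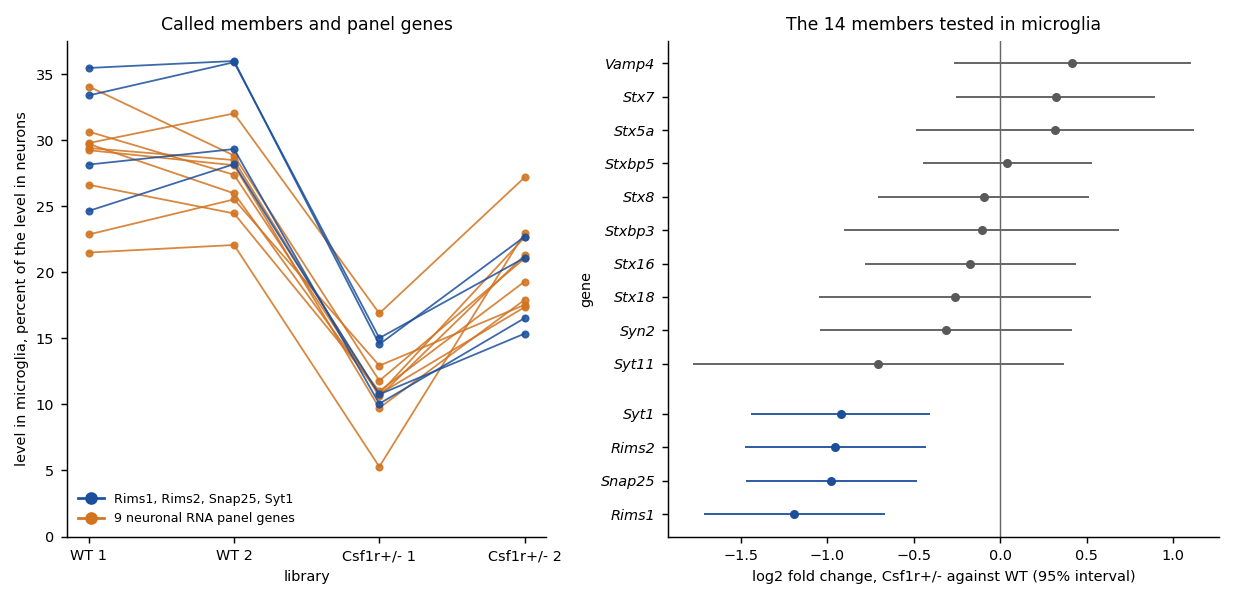
Left, level in microglia as a percent of the level in neurons of the same library for the 4 called members (blue) and 9 panel genes (orange), with lines joining values of a gene. Right, log2 fold change with its 95% interval for the 14 members tested. The 4 members and 8 of 9 panel genes were lower in both *Csf1r*+/- libraries than in either WT library, the exception being *Rbfox3* in *Csf1r*+/- replicate 2, and the endosomal members *Stx7*, *Stx8* and *Vamp4* had intervals that held 0.

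Of the 9 members that were highest in microglia, 5 were tested there (*Vamp4*, *Stx7*, *Stx5a*, *Stx16* and *Stx8*) and none was called, whereas the other 4 did not pass the filter. *Stx7* read 143 and 150 CPM (WT) against 167 and 201 CPM (*Csf1r*+/-), a log2 difference of 0.32 with an interval from -0.26 to 0.90. *Vamp4* read 104 and 85.7 CPM against 133 and 120 CPM, a log2 difference of 0.42 with an interval from -0.27 to 1.10. *Stx8* read 147 and 146 CPM against 148 and 124 CPM, a log2 difference of -0.10 with an interval from -0.71 to 0.51. The intervals are wide at this depth, 150 to 187 microglial nuclei per library with medians of 1110 to 1426 UMIs, and smaller differences were not detectable.

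In the other glial and vascular classes 1 member was called in all. In endothelial cells 0 of 35 members were called, where 4.21% of all genes were, and 2 had an unadjusted p under 0.05 by edgeR. The members' median log2 fold change was -0.21, with 26 of 35 lower, and the panel's was -0.72, with 9 of 9 lower. *Rims1* read 1195 and 1144 CPM (WT) against 749 and 636 CPM (*Csf1r*+/-) (log2 difference -0.75 ± 0.27 SE, adjusted p = 0.26 by edgeR). *Vamp8*, which was highest in this class, read 41.9 and 38.5 CPM against 48.2 and 85.7 CPM (log2 difference 0.69 ± 0.38 SE, adjusted p = 0.38 by edgeR). The panel gene *Lrrtm4* fell by 1.13 on the log2 scale in the same nuclei. In oligodendrocytes 0 of 18 members were called, where 1.20% of all genes were, and 4 had an unadjusted p under 0.05 by edgeR. There *Rims1* read 422 and 383 CPM (WT) against 182 and 278 CPM (*Csf1r*+/-) (log2 difference -0.81 ± 0.24 SE, adjusted p = 0.77 by edgeR), while the panel was lower for 8 of 8 genes with a median of -0.71. WT replicate 2 gave 1070 of the 1805 nuclei of the class. At the finer clustering the class split into 1 cluster of 72 and 1066 nuclei (WT) and 58 and 32 nuclei (*Csf1r*+/-) and another of 142 and 4 against 254 and 175 nuclei, and the part of that split was not tested. *Syt11* and *Stxbp3*, which were highest in this lineage, had log2 differences of -0.02 and 0.19.

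Mural cells went the other way. Of 36 members, 1 was called, where 1.67% of all genes were. It was *Sv2b*, at 91.7 and 81.9 CPM (WT) against 325 and 101 CPM (*Csf1r*+/-) (log2 difference 1.25 ± 0.42 SE, adjusted p = 0.52 by edgeR), and *Csf1r*+/- replicate 1 set that size. The call was lost without that library (0.18) and without either WT library, and the difference was -0.55 without nuclei of high doublet scores. The panel was higher for 9 of 9 genes in *Csf1r*+/- mural cells with a median of 0.43, and the class held 31 to 81 nuclei per library. In *Enpp6* oligodendrocytes 0 of 24 members and 0.650% of all genes were called, and in oligodendrocyte precursors 0 of 31 members and 0.777% of all genes, with 1 member in each at an unadjusted p under 0.05 by edgeR. DESeq2 also called 0 members in endothelial cells and in the 3 oligodendrocyte lineage classes. The part of free neuronal RNA in these glial contrasts was not tested.

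Other genes of the release pathway, a list of 44 genes from active zone scaffolds to vesicle recycling, is given by its counts. In excitatory neurons 1 of 36 was called, against 0.314% of all genes. It was *Synpr*, the vesicle protein synaptoporin, at 95.2 and 75.3 CPM (WT) against 58.1 and 56.7 CPM (*Csf1r*+/-) (log2 difference -0.57 ± 0.14 SE, adjusted p = 0.9999 by edgeR). In inhibitory neurons 0 of 37 were called, against 0.171% of all genes. In microglia 13 of 16 lay below 0 and 3 were called lower, where 5.86% of all genes and 5 of 9 panel genes were. They were *Cadps*, which primes dense-core vesicles, at a log2 difference of -1.25 (adjusted p = 0.034 by edgeR), and the scaffolds *Pclo* at -1.16 and *Erc2* at -0.81. In endothelial cells 25 of 30 lay below 0, with a median of -0.52, and 2 were called, where 4.21% of all genes were and 9 of 9 panel genes lay below 0. They were *Synpr* at -1.26 and *Erc2* at -0.91. None was called in oligodendrocytes (18 tested), mural cells (29) or *Enpp6* oligodendrocytes (20). In oligodendrocyte precursors 1 of 30 was called, *Syngr1*, which had no UMI in either *Csf1r*+/- library, where 0.777% of all genes were called. *Syngr1* could pass the detection filter only through WT, where it was high, so its call is no independent support. The *Csf1r*+/- libraries held 23 and 13 precursor nuclei. The part of free neuronal RNA in the glial and vascular counts was not tested.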

How the data were processed

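Single-nucleus RNA-seq was made with the 10x Chromium 3' v3.1 kit. The authors counted UMIs with Cell Ranger 5.0.0 (per the file headers) on mm10 and deposited raw counts per gene and called nucleus; whether intronic reads were included is not given in the sources used here. Further libraries of the study were not used here. The members and lists were chosen with earlier results of these data known, and the rule for naming clusters was revised after the clusters were seen.

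Nuclei with 500 to 50000 UMIs, over 200 genes and under 5% mitochondrial UMIs were kept. Clusters came from 3000 variable genes, 30 principal components, 20 neighbours and Leiden (leidenalg 0.10.2) at resolution 1, without the members. A name needed 3 markers in at least 10% of nuclei and at least 2 times the level elsewhere, with 1 among the 10 leading genes, or 5 markers. A cluster with 5 oligodendrocyte markers but none leading was kept apart and named for *Enpp6*, among its leading genes. Clusters with over 50% high doublet scores (0.8% expected per 1000 nuclei) stayed unnamed. The text names lead members, members at least 8 times their median over classes (at least 20 CPM), the 3 most like genes, of which the closest is given, and members called at p under 0.01.

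Summed counts were fitted with edgeR 4.0.16 (TMM, quasi-likelihood, two-sided, R 4.3.3), genotype as the only term. SE is the fold change over the root of F. Alternatives were RLE or library-total scaling, the likelihood-ratio test, DESeq2 1.42.0, no detection filter, at least 1000 UMIs, no high doublet scores, classes by marker UMIs, resolution 2, a replicate block, and each library left out. The fits were tested on simulated data. Depth was 88097109 to 111488169 UMIs per library. Results of 2 members are not reported here by name.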

Additional observations from a re-analysis of the deposited data

Results flagged for a closer look

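Of members called in a broad class, 2 had libraries that lay entirely on opposite sides in different classes. The difference between the classes was not tested. The share of all called genes that did so is not given, so this count does not set the members apart from other genes. *Snap25* was lower in both *Csf1r*+/- libraries of microglia (log2 fold change -0.98) and higher in both of mural cells (0.62). *Sv2b* was higher in both *Csf1r*+/- libraries of mural cells (1.25) and lower in both of inhibitory neurons (-0.43) and of oligodendrocytes (-0.88). The neuronal RNA panel was lower in microglia and oligodendrocytes and higher in mural cells, and its part in these results was not tested.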

How the results depend on the processing

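Excitatory neurons had no call under any alternative run, and no class's median log2 fold change moved by more than the median SE of its members. In microglia the 4 calls became 2 under DESeq2, 2 to 5 with a library left out (2 without *Csf1r*+/- replicate 1) and 0 with classes by marker UMIs, where *Rims1* read -0.58. In mural cells the 1 call became 0 under DESeq2, without high doublet scores and with classes by marker UMIs, and 0 to 3 with a library left out; *Sv2b* reversed to -0.55 without high doublet scores. In oligodendrocytes 0 calls became 4 under the likelihood-ratio test, 2 without the detection filter, 1 without high doublet scores, 3 with classes by marker UMIs, and 0 to 2 with a library left out. In endothelial cells 0 became 1 under the likelihood-ratio test, 2 without high doublet scores and 0 to 4 with a library left out (4 without *Csf1r*+/- replicate 1). In *Enpp6* oligodendrocytes 0 became 1 without high doublet scores and 0 to 2 with a library left out, in oligodendrocyte precursors 0 to 1, and in inhibitory neurons 1 without the detection filter and 0 to 2 with a library left out. Over neuron subtypes the 4 calls became 8 without the detection filter and 2 to 13 with a library left out (13 without WT replicate 1, 8 without WT replicate 2, 8 without *Csf1r*+/- replicate 2, 2 without *Csf1r*+/- replicate 1). The interaction gave 1 call without the detection filter and 0 to 5 with a library left out (5 without *Csf1r*+/- replicate 2). The share of all genes called under each alternative is not given beside these counts. Whether changes in them are particular to the members can therefore not be told. The cause of these changes was not tested.

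*Syt2* in Pvalb interneurons kept its call in 11 of 14 alternatives (log2 difference 0.41 to 0.58), *Sv2b* in Meis2 neurons in 13, *Rims1* there in 12 and *Syt10* in 6. In the main fit of the Meis2 neurons *Sv2b* passed the detection filter only through WT.

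The replicate numbers carry no stated meaning. Same-numbered libraries had deviations correlated at 0.06 in both neuron classes and -0.23 in oligodendrocytes. With the replicate number as a block, calls were 3 in mural cells and 4 in microglia, and over subtypes 4. With the numbers crossed, an alternative chosen after seeing the data, calls were 5 in oligodendrocytes and 0 in mural cells. The block changed no other call in the broad classes, and *Syt10* in Meis2 neurons lost its call. Classes by marker UMIs gave no *Enpp6* oligodendrocyte or precursor class, and without high doublet scores a library held under 10 precursor nuclei, so these were not run. With 2 libraries a genotype, p-values measure only the spread between these mice.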
